A study of Macaca fascicularis with 22 samples.

Results

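The genes described here are those of the cell cycle and of DNA replication. They were chosen from a list of 50 human RefSeq accessions, and 38 of these were carried by the array, each by 1 of its 20217 probes (19376 accessions). Of the 38 genes 15 act mainly in S phase and 23 in mitosis. The rule uses no values of these arrays, but the genes were chosen with earlier results of these data known. The other 12 accessions, among them those of TOP2A, BUB1, AURKA, MCM5, BIRC5 and FOXM1, were not carried by the array. The files name a probe by its accession only. A name is paired with 9 of the 38 accessions in the additional file of the study, in 1 case the older symbol CDC2 for CDK1. The other 29 carry the symbol in common use for the accession, which no file here was found to pair with it, so the accession is printed where each gene is first described.

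Total RNA of cynomolgus macaque neonates (Macaca fascicularis) was hybridized to 22 single-colour Agilent rhesus arrays. The lower birth weight group (LBW) held neonates of the 5th to the 25th centile and the average birth weight group (ABW) those of the 50th to the 75th, and the sample titles call the ABW arrays Control and the LBW arrays Treated, with no agent named in the labels. Skeletal muscle and umbilical cord had 4 arrays in each birth weight group by their labels, and liver had 3. The labels place the samples at birth, whereas the methods of the study take liver and muscle on day 5 of life, both from each neonate, and the sources used here do not tie single arrays to animals.

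A dividing cell first licenses its origins of replication with the MCM helicase, then copies its DNA in S phase with newly made nucleotides, and then separates the chromosomes in mitosis under the control of cyclins, CDK1 and the spindle checkpoint. The S phase genes are largely switched on by E2F transcription factors, which the retinoblastoma family of pocket proteins holds back. Transcripts of the mitotic genes build up late in the cycle and are low in cells that have left it, such as muscle fibres.

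A level is given as the log2 of the signal of a probe less the log2 of the 75th percentile of all probes on that array, so that 0 is that percentile. Levels of different probes are not comparable, and each gene is compared only with itself. These are bulk samples, in which fewer dividing cells and less RNA per dividing cell cannot be told apart. A probe was kept if, in any group, 75% or more of its arrays had it flagged by the scanner as well above background, which held for 17117 probes and for 37 of the 38 genes. CDC45 (NM_003504), which helps to unwind DNA at the replication fork, did not pass. The flag was set for 14594 to 17887 probes of an array, and the 75th percentile lay between 315 and 2390 signal units.

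The arrays lay on 6 slides. Every skeletal muscle ABW array was on slide 1 and every skeletal muscle LBW array on slide 2, so that there birth weight and slide cannot be told apart. The liver-labelled ABW arrays shared slide 3 with LBW replicate 1, slide 4 held the other 2 liver-labelled LBW arrays and cord-labelled ABW replicates 1 and 2, slide 5 the cord-labelled LBW arrays and slide 6 cord-labelled ABW replicates 3 and 4. Under the cord label, too, the birth weight groups shared no slide and cannot be told apart from it. The skeletal muscle arrays shared no slide with another label, so that muscle and slide cannot be told apart in the tissue comparisons. Marker genes parted from the labels. All 14 hepatocyte genes lay higher on every cord-labelled array than on every liver-labelled array, and ALB, APOA1, FGB, CPS1, AHSG, CP and AFP were well above background on no liver-labelled array. All 8 matrix and stromal genes, COL1A1 and LUM among them, lay higher on every liver-labelled array than on any other, and all 8 muscle genes lay highest on the skeletal muscle arrays. The arrays are therefore called by their labels.

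The mitotic genes as a group were highest on the liver-labelled arrays, and the S phase genes differed less between the labels. The median level of the 23 mitotic genes was -1.95 ± 0.33 (SD, n = 3) on liver-labelled ABW and -2.49 ± 0.26 (n = 3) on liver-labelled LBW arrays. It was -4.10 ± 0.76 (n = 4) and -4.47 ± 0.68 (n = 4) on the cord-labelled arrays and -4.99 ± 0.59 (n = 4) and -5.50 ± 0.48 (n = 4) on those of skeletal muscle. No cord-labelled or muscle array reached the lowest liver-labelled one, at -2.70, and the cord-labelled and muscle arrays overlapped. The 15 S phase genes had group medians between -3.35 ± 0.21 (n = 4, skeletal muscle LBW) and -2.86 ± 0.35 (n = 4, cord-labelled ABW). The skeletal muscle LBW arrays, at -3.62 to -3.15, lay below all 6 liver-labelled arrays, at -3.06 to -2.66, and every other pair of groups overlapped.

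**Figure D1:**
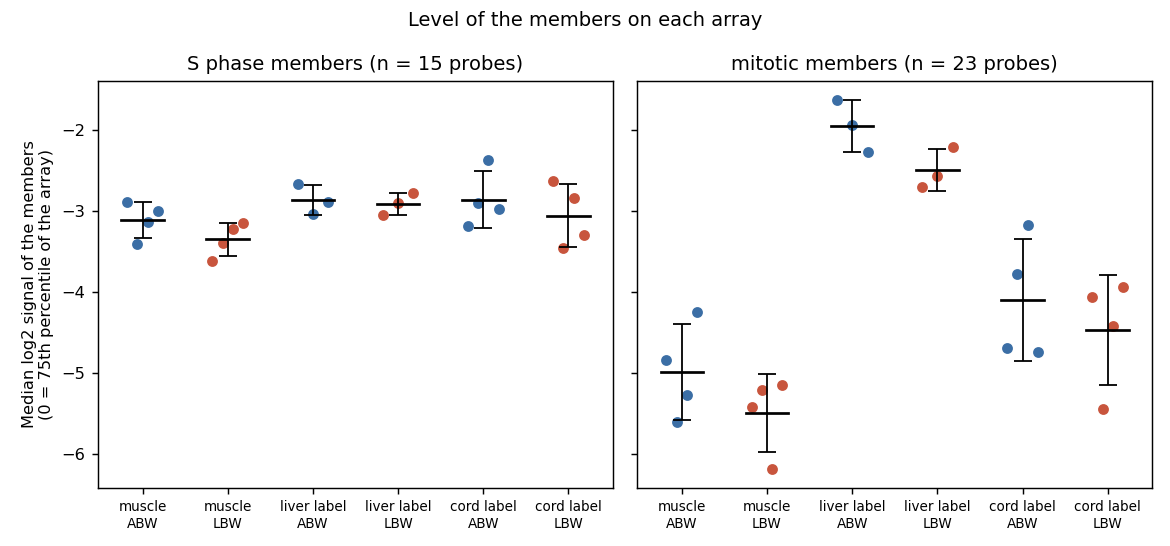
Median log2 signal of the 15 S phase genes (left) and the 23 mitotic genes (right) on each of the 22 arrays, where 0 is the 75th percentile of the array. Points are arrays (blue ABW, red LBW), lines group means and bars 1 SD. The mitotic medians of the 6 liver-labelled arrays lie above all others, and the S phase medians of the groups overlap except that skeletal muscle LBW lies below both liver-labelled groups.

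Skeletal muscle was set against the liver-labelled arrays in a limma fit of all 6 groups, with p-values adjusted by the Benjamini-Hochberg method over the 17117 probes. At an adjusted p under 0.05, 26 of the 37 genes tested were lower in skeletal muscle and 5 higher. Of all probes 28.1% were called lower and 37.1% higher, 65.3% together. The median difference over the 38 genes was -2.12 on the log2 scale, against 0.21 over all probes kept. Of the 23 mitotic genes 21 were called lower and none higher, and the median was -2.78, while of the S phase genes 5 were called in each direction with a median of -0.14. Every muscle array lay below every liver-labelled array for 25 of the 38 genes, against 19.1% of the probes kept.

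All 4 genes of the kinetochore, the structure that holds a chromosome to the spindle, were among those called lower in muscle. CENPE (NM_001813), a motor of the kinetochore, lay between -7.47 and -4.39 on the 8 muscle arrays and between -3.13 and -1.80 on the 6 liver-labelled arrays. These ranges did not overlap, and the difference was -3.56 ± 0.30 (SE; limma adjusted p = 2.49e-09, 11.8-fold). CENPF (NM_016343), a kinetochore protein of the late cycle, differed by -3.53 ± 0.32 (adjusted p = 7.59e-09). CKS2 (NM_001827), a small partner of CDK1, differed by -3.50 ± 0.32 (adjusted p = 7.26e-09, 11.3-fold). KIF20A (NM_005733), a kinesin of cytokinesis, and NDC80 (NM_006101), which binds the kinetochore to microtubules, were well above background on no muscle array and on all 6 liver-labelled ones, so that only a bound can be given. It was at least 3.14-fold for KIF20A and at least 3.24-fold for NDC80. Both are among the genes called lower, but NDC80 passed the filter through the liver-labelled groups alone. So did KIF11 and TTK, described below, and their calls against the liver-labelled arrays add no support.

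The 5 genes that were higher in skeletal muscle all belong to S phase. MCM4 (NM_005914), a subunit of the replicative helicase, was higher by 1.32 ± 0.35 (limma adjusted p = 0.00273), and CDC6 (NM_001254), which loads that helicase, by 0.77 ± 0.26 (adjusted p = 0.0139). RRM1 (NM_001033), the large subunit of ribonucleotide reductase, was higher by 0.67 ± 0.23 (adjusted p = 0.0176) and MCM7 (NM_005916) by 0.40 ± 0.17 (adjusted p = 0.0408). MCM6 (NM_005915), another helicase subunit, differed by 1.06 ± 0.36 (adjusted p = 0.0142), but it was well above background on 2 of 8 muscle arrays and on no liver-labelled array. RRM2 (NM_001034), the small and cycle-bound subunit of the same reductase, differed by -0.49 ± 0.32 (adjusted p = 0.181). With each array scaled to its spike-in controls in place of the percentile, no gene was called higher in muscle and 28 were called lower, and the differences of MCM7 (-0.35) and RRM1 (-0.08) turned.

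The cord-labelled arrays held 23 genes called lower than on the liver-labelled arrays and 1 called higher, against 31.3% and 35.6% of all probes (66.9% together), with a median of -1.24 over the 38 genes and 0.13 over all probes kept. The 23 called lower were 19 mitotic genes and 4 S phase genes. CENPF differed by -2.99 ± 0.32 (limma adjusted p = 6.75e-08, 7.93-fold) and PTTG1 (NM_004219), the securin that holds back the separation of sister chromatids until anaphase, by -2.94 ± 0.27 (adjusted p = 8.62e-09, 7.65-fold). PRC1 (NM_003981), a crosslinker of the central spindle, differed by -2.86 ± 0.33 (adjusted p = 2.36e-07), CDK1 (NM_001786), the kinase that drives entry into mitosis, by -2.75 ± 0.41 (adjusted p = 6e-06) and CCNB1 (NM_031966), its cyclin B1 partner, by -2.74 ± 0.26 (adjusted p = 1.08e-08). MCM6 was higher on every cord-labelled array, by at least 1.97-fold, a bound since no liver-labelled array measured it well above background. It passed the filter through the cord-labelled ABW group alone, so that its call adds no support. Every cord-labelled array lay below every liver-labelled array for 15 of the 38 genes, against 19.3% of the probes kept. The share of all probes separated the other way was not computed. Slide 4 held 2 arrays of each label, but there the cord-labelled arrays were ABW and the liver-labelled ones LBW, so that label and birth weight cannot be told apart within it.

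Between skeletal muscle and the cord-labelled arrays 17 genes were called lower in muscle and 4 higher (29.1% and 35.8% of all probes, 64.9% together), with a median of -0.57 against 0.11 over all probes kept. The size of that median depended on the processing, at -1.76 under spike-in scaling, larger than the -0.79 of cord minus liver there, and at -0.045 under the normexp background correction with an offset of 50 units, which draws dim signals together. CKS2 was lower on every muscle array, at -5.37 to -3.13 against -2.10 to 0.04, a difference of -3.13 ± 0.29 (limma adjusted p = 8.44e-09, 8.74-fold). CDC20 (NM_001255), which starts anaphase, was lower on every muscle array too, with a difference of -2.16 ± 0.20 (adjusted p = 9.59e-09), and so was CHEK1 (NM_001274), the S phase checkpoint kinase, with -1.95 ± 0.22 (adjusted p = 1.38e-07). These were the only 3 of the 38 genes with every muscle array below every cord-labelled array, against 14.4% of the probes kept. TK1 (NM_003258), the thymidine kinase of the salvage pathway, differed by -1.82 ± 0.32 (adjusted p = 4.81e-05) and KIF2C (NM_006845), a kinesin that takes down microtubules, by -1.47 ± 0.27 (adjusted p = 6.18e-05), both with overlapping arrays. MCM6 was among the 17 called lower (-1.36 ± 0.33, limma adjusted p = 0.00127). It passed the filter through the cord-labelled ABW group alone, so that its call adds no support here either. RRM1 was higher on every muscle array, by 1.60 ± 0.22 (adjusted p = 1.76e-06, 3.02-fold), and no other gene of the 38 was. The share of all probes with that separation was not computed. MCM4 (1.06 ± 0.32, adjusted p = 0.00727), PTTG1 (0.84 ± 0.25, adjusted p = 0.00654) and MCM7 (0.58 ± 0.15, adjusted p = 0.00243) were also called higher in muscle. Under the spike-in scaling these last 3 differences turned to -0.13, -0.35 and -0.61.

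**Figure D2:**
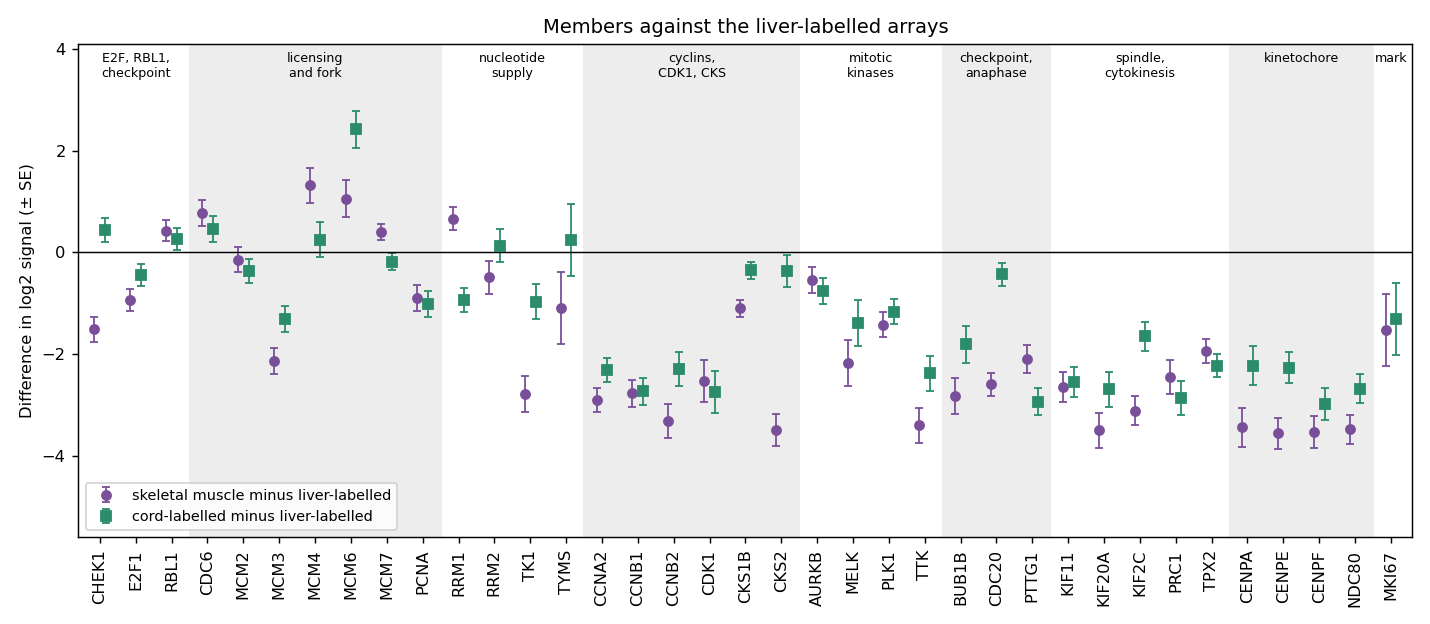
Difference in log2 signal of the 37 genes tested, skeletal muscle minus liver-labelled (purple circles) and cord-labelled minus liver-labelled (green squares), in the order of their roles. Bars are 1 SE of the limma fit. The mitotic genes from CCNA2 to the right lie below 0 in both comparisons, and MCM4 and MCM6 lie highest among the S phase genes.

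The other question was whether these genes differ between LBW and ABW neonates within each tissue label. The threshold of the study was a p under 0.05, not adjusted, together with a change of 1.5-fold, and by it limma called 9 of the 37 genes lower in LBW skeletal muscle, 6 lower on the liver-labelled and 3 lower on the cord-labelled arrays. Over all probes 2.50%, 1.69% and 5.26% were called lower, and in both directions together 12.2%, 4.71% and 8.93%. In the other direction 3 genes were called higher in skeletal muscle and none under the liver or cord label, against 9.70%, 3.02% and 3.66% of all probes. No gene of the 38 reached an adjusted p under 0.05 in any of the 3 comparisons, where the shares of all probes that did were 0%, 0% and 0.625%. The counts at an unadjusted p under 0.05 were 12, 7 and 3 of the 37 genes, against 2524, 1025 and 1531 of the 17117 probes. The methods' t-test put 5, 1 and 2 genes past the threshold and none after adjustment.

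**Figure D3:**
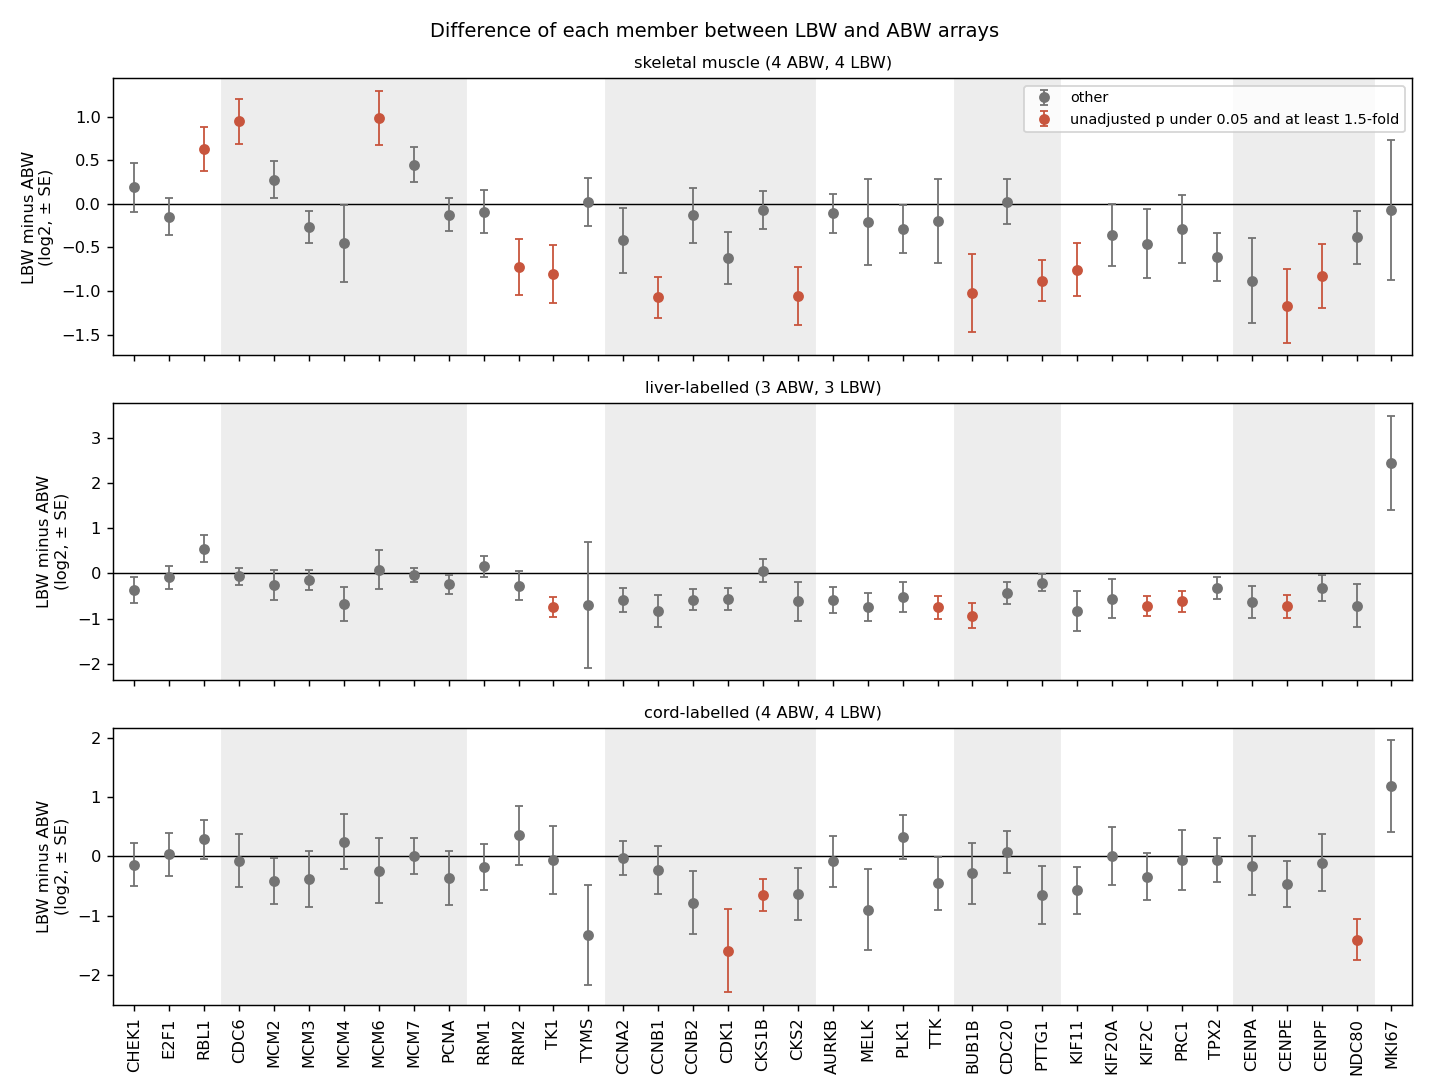
LBW minus ABW of the 37 genes tested on the log2 scale, in skeletal muscle (top), liver-labelled (middle) and cord-labelled arrays (bottom), each panel with its own vertical scale. Bars are 1 SE, red points have an unadjusted p under 0.05 and at least a 1.5-fold difference and number 12, 6 and 3, and the point farthest above 0 is MCM6 in skeletal muscle and MKI67 under the liver and cord labels.

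In skeletal muscle 7 of the 23 mitotic genes were lower in LBW past the unadjusted threshold, and none passed after adjustment. The mitotic genes had a lower LBW mean in 22 of 23 cases with a median of -0.42. The S phase genes were lower in 8 of 15 with a median of -0.05, and 3 were past the threshold upward and 2 downward. Over all 38 genes, 30 of which were lower, the median was -0.27, and over all probes kept, 42.7% of which were lower, it was 0.07. With the normexp background correction and an offset of 50 units the median over the 38 genes turned to 0.06, and 1 gene was past the threshold in place of 12. Matrix and stromal genes were lower with them, all 8 in mean with a median of -0.82 and 4 past the threshold, their array medians lying between 1.72 and 2.52 in ABW and between 1.49 and 2.26 in LBW. Erythroid genes went the other way, with 7 of 7 higher in LBW mean, a median of 0.85 and 4 of the 6 tested past the threshold. Their array medians lay between -6.30 and -4.54 in ABW and between -5.71 and -3.98 in LBW. Leukocyte genes went both ways, with 4 of 7 lower, a median of -0.58 and 1 past the threshold in each direction. Their array medians lay between -5.96 and -5.35 in ABW and between -5.45 and -4.81 in LBW. The part of these 3 lists in the result was not tested.

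CCNB1 lay at -5.62, -5.54, -5.58 and -5.22 on the muscle ABW arrays and at -6.41, -6.69, -7.09 and -6.08 on the LBW arrays. Every LBW array was below every ABW array, the ABW arrays were close to each other, and 2 of the 4 LBW arrays measured the gene well above background. The difference was -1.07 ± 0.24 (SE, 2.11-fold; limma unadjusted p = 0.00139, adjusted p = 0.107), and the two-sided exact permutation test gave p = 0.0286, the smallest that 4 against 4 allows. With the normexp correction and its offset the difference turned to 0.042, and those of BUB1B and KIF11 to 0.079 and 0.15. PTTG1 lay at -1.17, -1.53, -2.14 and -1.27 on the ABW and at -2.60, -2.18, -2.49 and -2.36 on the LBW arrays. These groups did not overlap either, though by a narrow margin, with a difference of -0.88 ± 0.24 (1.84-fold; limma adjusted p = 0.149, exact p = 0.0286). TK1 was the third gene with every LBW array below every ABW array, at -2.14, -2.40, -2.53 and -1.30 in ABW and -3.62, -2.68, -2.63 and -2.67 in LBW. LBW replicate 1 stood far below the other LBW arrays, and the difference was -0.80 ± 0.33 (1.75-fold; limma adjusted p = 0.302). Of the probes kept, 1.92% had every LBW array below every ABW array.

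CENPE had the largest difference among the genes past the threshold in muscle. Its levels were -5.68, -6.30, -5.55 and -4.39 in ABW and -6.58, -6.42, -7.47 and -6.13 in LBW. ABW replicate 2 fell among the LBW arrays, ABW replicate 4 stood highest, and the difference was -1.17 ± 0.42 (2.25-fold; limma unadjusted p = 0.0215, adjusted p = 0.24). BUB1B (NM_001211), a kinase of the spindle checkpoint, lay at -5.89, -6.32, -5.98 and -4.64 in ABW and at -7.27, -6.23, -7.45 and -5.97 in LBW. Again ABW replicate 4 was highest and the groups overlapped, with a difference of -1.02 ± 0.45 (adjusted p = 0.332). The remaining 4 genes past the threshold downward were CKS2 (-1.06 ± 0.33), CENPF (-0.83 ± 0.37), KIF11 (NM_004523), a kinesin of the bipolar spindle (-0.76 ± 0.31), and RRM2 (-0.73 ± 0.32), with adjusted p between 0.189 and 0.339. KIF11 was well above background on 1 ABW and no LBW array of muscle, so no fold is given for it. CDK1 had a lower LBW mean that missed the p threshold (-0.62 ± 0.29, limma unadjusted p = 0.0634).

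ABW replicate 4 had the highest level of the 4 ABW arrays for many of these genes, and its median over the 38 genes was -3.36 against -4.62 to -3.93 on the other 3. Without it 2 genes were past the threshold upward and 4 downward, and the median difference over the 38 genes was -0.09. Without LBW replicate 3 the count of genes past the threshold was 7.

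The 3 genes past the threshold upward in LBW muscle were 2 licensing factors and a pocket protein. MCM6 lay at -8.05, -7.89, -7.21 and -7.22 in ABW and at -7.07, -5.89, -6.80 and -6.65 in LBW. All LBW arrays were above all ABW arrays, but no ABW array and only 2 LBW arrays measured it well above background. The measured difference was 0.99 ± 0.31 (limma unadjusted p = 0.0103, adjusted p = 0.186; exact p = 0.0286) with no fold given. CDC6 lay at -6.11, -6.23, -5.87 and -5.32 in ABW and at -4.92, -4.94, -4.50 and -5.39 in LBW. ABW replicate 4 lay just above LBW replicate 4, and the difference was 0.95 ± 0.26 (1.93-fold; limma adjusted p = 0.154, exact p = 0.0571).

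RBL1 (NM_002895), the pocket protein p107 that binds E2F factors, was the only gene of the 38 with a higher LBW mean under all 3 labels. In muscle it lay at -3.43, -3.86, -3.55 and -3.56 in ABW and at -3.07, -3.15, -2.30 and -3.36 in LBW. Every LBW array was above every ABW array, LBW replicate 3 by far the most, and 8.61% of the probes kept showed such a separation. The difference was 0.63 ± 0.25 (1.55-fold; limma unadjusted p = 0.0315, adjusted p = 0.283; exact p = 0.0286). It was 0.55 ± 0.30 on the liver-labelled arrays (adjusted p = 0.883) and 0.29 ± 0.32 on the cord-labelled arrays (adjusted p = 0.812), with overlapping groups in both. The study had reported RBL1 higher in LBW muscle from these arrays and by qRT-PCR of the same RNA. The call in muscle is therefore no independent support.

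**Figure D4:**
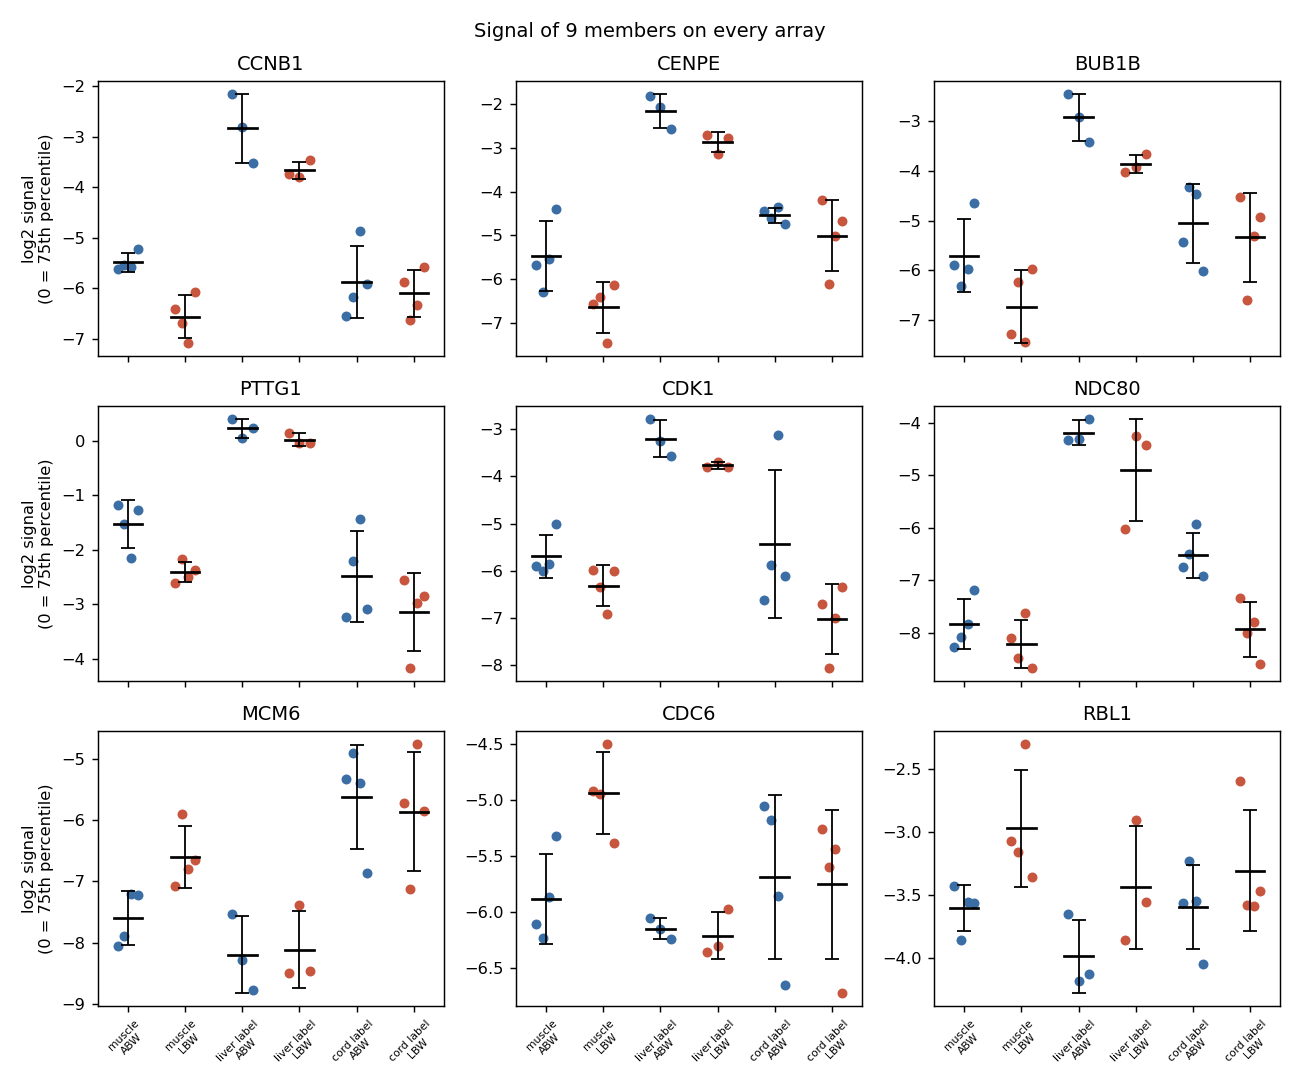
Log2 signal of 9 genes on each of the 22 arrays, where 0 is the 75th percentile of the array. Points are arrays (blue ABW, red LBW), lines group means and bars 1 SD, and each panel has its own scale. CCNB1 and PTTG1 separate ABW from LBW in skeletal muscle downward and MCM6 and RBL1 upward, BUB1B, CENPE and CDK1 separate them under the liver label, and NDC80 under the cord label.

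On the liver-labelled arrays the LBW mean was lower for 33 of 38 genes with a median of -0.56, against 0.06 over all probes kept, of which 41.5% were lower. The mitotic genes were lower in 21 of 23 with a median of -0.59 and 5 past the threshold, and the S phase genes in 12 of 15 with a median of -0.24 and 1 past the threshold. The median level over the 38 genes was -1.80, -2.26 and -2.47 on the 3 ABW arrays and -2.82, -2.69 and -2.71 on the 3 LBW arrays. No LBW array reached the lowest ABW array, under scaling to the percentile, to the median and by quantiles, whereas the groups overlapped under the spike-in scaling. The medians of the 23 mitotic and of the 15 S phase genes, taken apart, did not have every LBW array below every ABW array under any of these 4 scalings, and the mean difference of the S phase median was -0.051 under the percentile scaling. Matrix and stromal genes differed there by a median of -0.18, with 7 of 8 lower and none past the threshold, and their array medians lay between 5.02 and 5.41 in ABW and between 4.93 and 5.05 in LBW. Erythroid and leukocyte genes were each lower in all but 1, by medians of -0.58 and -0.33, with none past the threshold. Skeletal muscle genes had 2 of 8 higher in LBW past the threshold, while MYH3, the embryonic myosin heavy chain, had means of -1.66 in ABW and -5.55 in LBW, and their array medians lay between -4.31 and -3.64 in ABW and between -6.09 and -3.97 in LBW. The part of these lists in the result was not tested.

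BUB1B had the largest difference past the threshold under the liver label, with -2.45, -2.90 and -3.41 in ABW and -4.01, -3.91 and -3.66 in LBW. The groups did not overlap, and the ABW arrays were spread more widely than the LBW arrays. The difference was -0.94 ± 0.28 (1.92-fold; limma unadjusted p = 0.0133, adjusted p = 0.783), and the exact permutation test gave p = 0.1, the smallest that 3 against 3 allows. TTK (NM_003318), the checkpoint kinase MPS1, lay at -3.36, -3.69 and -4.04 in ABW and at -4.51, -4.72 and -4.11 in LBW, a difference of -0.75 ± 0.26 (1.68-fold; limma adjusted p = 0.813). CENPE, also called in muscle, lay at -1.80, -2.05 and -2.57 in ABW and at -2.70, -3.13 and -2.77 in LBW, a difference of -0.73 ± 0.26 (1.66-fold; limma adjusted p = 0.813).

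TK1, likewise called in muscle, lay under the liver label at 1.06, 0.39 and 0.53 in ABW and -0.16, -0.06 and -0.01 in LBW. The groups did not overlap, the LBW arrays lay close together, and the difference was -0.74 ± 0.22 (1.67-fold; limma unadjusted p = 0.0143, adjusted p = 0.8). KIF2C lay at -0.19, -0.18 and -0.76 in ABW and at -1.13, -1.17 and -0.97 in LBW, a difference of -0.71 ± 0.22 (1.64-fold). PRC1 lay at 0.40, 0.10 and -0.26 in ABW and at -0.35, -0.58 and -0.68 in LBW, a difference of -0.62 ± 0.23 (1.53-fold). CDK1, CCNA2 (NM_001237), the cyclin of S phase and early mitosis, and CCNB2 (NM_004701), the second mitotic cyclin B, were below every ABW array on all LBW arrays as well, which makes 9 of 38 genes with such a separation, against 3.21% of the probes kept. The differences of the last 3, -0.57, -0.59 and -0.58, did not pass both thresholds. No gene had every LBW array above every ABW array under the liver or the cord label, against 8.82% and 2.65% of the probes kept.

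ABW replicate 1 was the highest liver-labelled array for many mitotic genes, and the counts moved with single arrays. Past the threshold were 1 gene without ABW replicate 1, 13 without ABW replicate 3, 10 without LBW replicate 1 and 3 without LBW replicate 2. The median difference over the 38 genes stayed between -0.66 and -0.32. Within slide 3, where the 3 ABW arrays met LBW replicate 1 alone, the median was -0.52, a value with no test since 1 array has no spread.

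MKI67 (NM_002417), which codes for the proliferation mark Ki-67, had a higher LBW mean under the liver label, as did 1 other mitotic gene, CKS1B (NM_001826, 0.056), and lay at -7.78, -4.62 and -8.90 in ABW and -4.03, -4.81 and -5.13 in LBW. The groups overlapped, and the probe was well above background on 1 ABW and on all 3 LBW arrays. It passed the filter through that LBW group alone. The difference was 2.44 ± 1.04 (limma unadjusted p = 0.0542, adjusted p = 0.831). The probe was dim everywhere else, with 1 array well above background in each of the other 4 groups, and it differed by 1.19 ± 0.77 under the cord label and by -0.07 ± 0.80 in muscle.

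On the cord-labelled arrays 3 genes were past the threshold. The LBW mean was lower for 29 of 38 genes with a median of -0.20, and 50.9% of the probes kept were lower there, with a median of -0.01. Leukocyte genes were higher in LBW mean in 6 of 7, with 1 past the threshold, and their array medians did not overlap, at -4.31 to -3.90 in ABW and -3.78 to -2.75 in LBW. Of the 14 hepatocyte genes 2 were lower past the threshold, 1 of them with a limma adjusted p under 0.05, and CP, ceruloplasmin, had means of 1.56 in ABW and -2.16 in LBW. The hepatocyte array medians overlapped, at 6.71 to 7.47 in ABW and 6.30 to 7.38 in LBW, and the part of both lists in the result was not tested. NDC80 lay at -6.74, -6.51, -5.93 and -6.92 in ABW and at -7.34, -7.99, -7.80 and -8.59 in LBW. Every LBW array was below every ABW array, as for 3.21% of the probes kept, but only 2 ABW arrays and no LBW array measured the gene well above background. The measured difference was -1.41 ± 0.35 (limma unadjusted p = 0.00228, adjusted p = 0.18; exact p = 0.0286) with no fold given, and it turned to 0.33 with dim signals set to a floor and to 0.64 with the normexp correction and its offset. CKS1B, a partner of CDK1 that also serves the ubiquitin ligase for p27, lay at 2.55, 2.89, 2.38 and 2.43 in ABW and at 2.23, 1.96, 1.76 and 1.68 in LBW. It was bright on all arrays and the groups did not overlap, with a difference of -0.65 ± 0.27 (1.57-fold; limma adjusted p = 0.543, exact p = 0.0286).

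CDK1 was the third gene past the threshold under the cord label, at -6.63, -5.88, -3.13 and -6.10 in ABW and -6.70, -8.07, -6.99 and -6.35 in LBW. ABW replicate 3 of slide 6 stood far above all others, and the groups overlapped. CDK1 was well above background on all 4 ABW arrays but on only 1 LBW array. The measured difference was -1.59 ± 0.71 (limma unadjusted p = 0.0468, adjusted p = 0.557) with no fold given. Without ABW replicate 3 it was -0.82, and with the normexp correction and its offset it turned to 0.33. Against the ABW arrays of slide 4 alone the median over the 38 genes was -0.17, and against those of slide 6 alone it was -0.34. Without LBW replicate 2 or LBW replicate 3 only 1 gene was past the threshold, and without ABW replicate 4 there were 5.

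Genes that mark a proliferating tissue but passed no threshold for birth weight under any label were PCNA (NM_002592), the sliding clamp of the replication fork, MCM2 (NM_004526), TYMS (NM_001071), the source of thymidylate, PLK1 (NM_005030), a mitotic kinase, and E2F1 (NM_005225). PCNA differed by -0.12 ± 0.19 in muscle, -0.24 ± 0.21 under the liver label and -0.36 ± 0.46 under the cord label. MCM2 differed by 0.28 ± 0.21, -0.26 ± 0.33 and -0.42 ± 0.39 in the same order, PLK1 by -0.28 ± 0.28, -0.51 ± 0.33 and 0.33 ± 0.37, and E2F1 by -0.15 ± 0.21, -0.09 ± 0.25 and 0.04 ± 0.36. All of these were smaller than 2 SE. CCNB1 differed by -0.83 ± 0.35 under the liver label and by -0.23 ± 0.40 under the cord label, and RRM2 by -0.27 ± 0.32 and 0.36 ± 0.50. TYMS was well above background on no muscle array and on 1 liver-labelled array of each group. Under the cord label its means were -6.47 in ABW, with 3 arrays well above background, and -7.80 in LBW, with 1.

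Across the labels 21 of the 37 genes kept had a lower LBW mean in all 3, against 12.9% of the probes kept, and 1, RBL1, had a higher LBW mean in all 3, against 20.1%. With CDC45 counted they were 22 of 38, of which 18 were among the 23 mitotic genes and 4 among the 15 S phase genes. In the fit of the 6 groups the mean of the 3 differences was below 0 for 33 of the 38 genes and 43.4% of the probes kept, with medians of -0.33 and 0.04. Past the threshold 7 genes were lower and 1 higher, against 2.41% and 2.28% of all probes (4.69% together), and none had an adjusted p under 0.05, against 0.888%. An unadjusted p under 0.05 was found for 11 of the 37 genes, against 2323 of the 17117 probes. The 7 were CDK1 (-0.93 ± 0.33), NDC80 (-0.83 ± 0.22), CENPE (-0.79 ± 0.24), CKS2 (-0.77 ± 0.25), BUB1B (-0.75 ± 0.29), KIF11 (-0.72 ± 0.23) and CCNB1 (-0.71 ± 0.21), with limma adjusted p between 0.093 and 0.264, and the 1 higher was MKI67 (1.19 ± 0.56, adjusted p = 0.365). MKI67 passed the filter through the liver-labelled LBW group alone, so that its call adds no support.

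The interaction of birth weight and tissue label tests whether a gene differs between LBW and ABW by another amount in 1 tissue than in the others. None of the 37 genes had an unadjusted p under 0.05 for it, against 10.1% of all probes, and none an adjusted p under 0.05, against 1.01%. The smallest was that of CDC6 (limma unadjusted p = 0.0852, adjusted p = 0.598), although CDC6 differed by 0.95 in muscle, -0.06 under the liver label and -0.07 under the cord label. Up to 2 genes had an unadjusted p under 0.05 when single arrays were left out.

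The direction across the labels changed with the background correction. With dim signals set to a floor, 17 of the 37 genes kept were still lower in all 3 labels. The medians were then -0.14 in muscle, -0.50 under the liver label and -0.06 under the cord label. The normexp values started from the unsubtracted signal and local background of each spot, so that the part of dim signals alone was not tested. The median signal of the genes was under 50 units for 20 of 38 in skeletal muscle, 19 under the cord label and 9 under the liver label. With the normexp background correction and an offset of 50 units, which pulls signals of that size together, the median difference over the 38 genes was 0.06 in muscle, -0.25 under the liver label and 0.35 under the cord label, while all probes shifted to medians of 0.14, 0.01 and 0.29. With no offset it was -0.10, -0.43 and 0.08, and the genes lower in all 3 labels numbered 3 with the offset and 9 without it. With spike-in scaling they numbered 29, against 20.5% of the probes kept, since that scaling moved the median of all probes to -0.47 in muscle, 0.16 under the liver label and -0.39 under the cord label. The median under the liver label was below 0 under every setting tried and with each array left out.

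**Figure D5:**
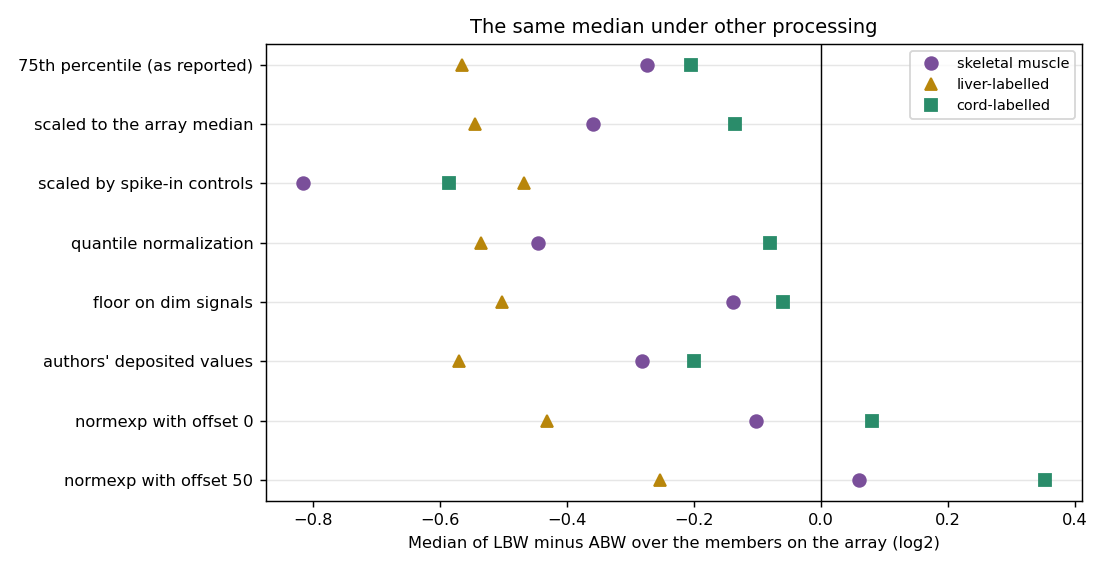
Median of LBW minus ABW over the 38 genes on the log2 scale in skeletal muscle (purple circles), liver-labelled (gold triangles) and cord-labelled arrays (green squares), with 1 row for each way of processing the same arrays. The liver-labelled median lies between -0.57 and -0.25 in every row, and the other medians cross 0 under the normexp background correction, the muscle median with an offset of 50 only.

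Another 66 genes of the cell cycle, from a list that holds none of the 38, were looked up to see whether they moved alike, and 52 were on the array and 50 tested. That list, too, was chosen with earlier results of these data known, and the study names ANLN among its top genes in muscle. In skeletal muscle 4 were lower in LBW past the threshold and 1 higher, against 2.50% and 9.70% of all probes, with a median of 0.03. Those lower were ANLN (NM_018685), a scaffold of the cleavage furrow (-1.47), CCNE2 (NM_057749), a cyclin of S phase entry (-0.81), CCND2 (NM_001759), a cyclin of G1 (-0.79), and ECT2 (NM_018098), which activates RhoA at the cleavage furrow (-0.78), and the 1 higher was POLE2 (NM_002692), a subunit of DNA polymerase epsilon (1.06). Under the liver label 4 were lower and none higher, against 1.69% and 3.02% of all probes, with a median of -0.20. They were CCNE2 (-0.86), CDT1 (NM_030928), a licensing factor (-0.80), MYBL2 (NM_002466), a transcription factor of the late cycle (-0.69), and ORC1 (NM_004153), a subunit of the origin recognition complex (-0.62). Under the cord label 5 were lower and none higher, against 5.26% and 3.66% of all probes, with a median of -0.26, and these were SMC2 (NM_006444), a condensin subunit (-2.12), ECT2 (-1.63), PRIM1 (NM_000946), the primase (-1.31), SPAG5 (NM_006461), a spindle protein (-1.01), and RPA3 (NM_002947), a subunit of the single-strand binding protein RPA (-0.87). In the mean of the 3 labels 6 were lower past the threshold and none higher, against 2.41% and 2.28% of all probes. ECT2 alone had a limma adjusted p under 0.05 (-0.93 ± 0.20, adjusted p = 0.0319), as had 0.888% of all probes.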

How the data were processed

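The deposited scanner files hold, per the file headers, the intensity of each spot from Agilent Feature Extraction (another version for slide 6) with the background subtracted and detrended over the slide and no scaling from array to array. A second table deposited by the authors holds log2 values after percentile scaling and a baseline transformation, used here as an alternative. The 2 spots of a probe were averaged, outlier spots left out, and the log2 signal reduced by the array's 75th percentile. LBW was set against ABW with limma 3.58.1 (statmod 1.5.0, R 4.3.3) within each tissue, and tissues in a fit of the 6 groups. The filter followed the study's 75% rule, with the well above background flag in place of its present call. Birth weight comparisons took the thresholds of the study's t-test, and tissue comparisons an adjusted p under 0.05 alone. Python 3.11.15 made the tables. Scripts were tested on simulated data. Arrays were taken as independent, so p-values measure the spread between them, and their number limits the precision. By the study's methods liver and muscle came from the same neonates, so the fit of the 6 groups may hold several arrays of 1 animal. Its p-values, for the tissue comparisons, the mean of the 3 labels and the interaction, therefore do not measure the spread between animals.

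The genes and lists were chosen with earlier results of these data known. The study's additional file pairs a name with 9 of the 38 accessions and 10 of the 120 in the marker and comparison lists. The other symbols were assigned from general knowledge of these human accessions and could not be looked up here. A list gene with several probes took the brightest. Named were 13 fixed genes (10 on the array), up to 10 past the threshold per birth weight comparison, and 5 per direction for tissues. Others were named for a separation, a dim signal or a change of sign, after their values were seen. Alternatives covered background correction, scaling, filters, a floor, averaging per accession, the authors' values, the methods' t-test, slide and replicate blocks, and leaving out each array. No sequences were used here.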

Additional observations from a re-analysis of the deposited data

Results flagged for a closer look

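Of 108 groups of 4 arrays, 4 held an array whose gap to its nearest neighbour took most of the range of the group, where about 1 in 20 would by chance. In skeletal muscle ABW replicate 4, CDK1 lay at -5.02 and the other 3 arrays between -6.01 and -5.85. MKI67 lay at -4.70 on the same array and between -8.56 and -7.96 on the others. TK1 lay at -3.62 on skeletal muscle LBW replicate 1 and between -2.68 and -2.63 on the others, and RBL1 at -2.59 on cord-labelled LBW replicate 1 and between -3.59 and -3.47 on the others. The groups of 3 liver-labelled arrays were not tested in this way.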

How the results depend on the processing

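Counts here are genes past the threshold of the comparison, in both directions together, and medians are over the 38 genes. With dim signals set to a floor 1 gene was past the threshold under the cord label and 2 in the mean of the 3 labels. The methods' t-test gave 5 in muscle and 1 under the liver label. The normexp correction with an offset of 50 gave 1 in muscle, 2 under the liver label, 0 in the mean, 2 for the interaction and 10 for muscle against cord. Its medians were 0.061 in muscle, -0.25 under the liver label, 0.35 under the cord label, 0.025 in the mean, -0.48 for muscle minus liver, -0.41 for cord minus liver and -0.045 for muscle minus cord, and 3 genes were lower in all 3 labels. With no offset, a setting chosen after seeing the data, it gave 7 in muscle, 1 under the cord label, 2 in the mean and 1 for the interaction, medians of 0.081 under the cord label and -1.46 for muscle minus liver, and 9 genes lower in all 3 labels. Quantile normalization gave 1 adjusted call in the mean, NDC80, and 1 for the interaction. Spike-in scaling moved the median of all probes to -0.47 in muscle, 0.16 under the liver label, -0.39 under the cord label and -0.23 in the mean. It gave 20 in muscle, 1 under the liver label, 0 under the cord label and 1 for the interaction, medians of -0.81 in muscle, -2.87 for muscle minus liver, -0.79 for cord minus liver and -1.76 for muscle minus cord, and 29 genes lower in all 3 labels. Keeping only probes well above background on all arrays left 22 to 34 genes to test and gave 7 in muscle, 1 under the cord label, 1 in the mean, 18 for muscle minus liver, 12 for cord minus liver and 13 for muscle minus cord. Without the 2 arrays of slide 6, also chosen after seeing the data, the interaction had 2. Where not evident from fewer genes or arrays, the cause was not tested.

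Signs of single genes turned as follows. Under normexp with the offset, CDK1 under the cord label was 0.33 and NDC80 0.64, muscle BUB1B was 0.079, CCNB1 0.042 and KIF11 0.15, and in the mean BUB1B was 0.039, CCNB1 0.027, CDK1 0.039, KIF11 0.18 and NDC80 0.23. NDC80 under the cord label was 0.084 with no offset and 0.33 with the floor. Under spike-in scaling muscle minus cord was -0.13 for MCM4, -0.61 for MCM7 and -0.35 for PTTG1, and muscle minus liver was -0.35 for MCM7 and -0.085 for RRM1.

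With each array left out in turn the counts ranged from 6 to 13 in muscle, 1 to 13 under the liver label, 1 to 5 under the cord label, 7 to 11 in the mean, 0 to 2 for the interaction, 30 to 32 for muscle minus liver, 24 to 27 for cord minus liver and 18 to 23 for muscle minus cord. The medians ranged from -0.43 to -0.09, -0.66 to -0.32, -0.40 to -0.03, -0.39 to -0.23, -2.17 to -2.05, -1.29 to -1.07 and -0.68 to -0.47 in the same order, without the interaction. Same-numbered LBW and ABW arrays, which are of different neonates, had correlated deviations of -0.17 to 0.13 in muscle. The range was 0.02 to 0.17 under the liver label and -0.22 to 0.30 under the cord label. Muscle and liver-labelled arrays of the same number could share a neonate by the methods. Their deviations had correlations of -0.07 to 0.04 in ABW and -0.29 to -0.04 in LBW. The numbers were not taken as pairs, and whether arrays share a neonate stays unknown. With the replicate block the counts were 14, 6, 4 and 8 for muscle, liver, cord and the mean. Of the 38 genes, 20 in muscle and 19 under the cord label had a median signal under 50 units, and signal over background limits what their differences can show.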
